A study of Mus musculus with 67 samples.

Results

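The carboxylesterases are a family of serine hydrolases that cleave ester bonds in drugs, environmental chemicals and stored lipids, and the mouse genome holds an expanded set of them. Described here are the 10 family members chosen by gene symbol, with earlier results of these data known (Ces1b, Ces1c, Ces1d, Ces1e, Ces1f, Ces1g, Ces2a, Ces2e, Ces3a and Ces3b), out of 45808 gene rows, each measured in liver in 67 libraries. All 10 were found in the table by symbol and all passed the filter of a mean of at least 1 FPKM (fragments per kilobase of exon, scaled to depth) that left 9958 genes to test. Most carboxylesterases sit in the lumen of the hepatocyte endoplasmic reticulum. There they hydrolyse ester drugs and acylglycerols, and some feed fatty acids from stored triglyceride into very-low-density lipoprotein (VLDL). Ces1d encodes a triacylglycerol hydrolase linked to VLDL assembly, Ces1f a related lipid droplet hydrolase, Ces1g a hydrolase that affects liver triglyceride, Ces1e egasyn, which holds beta-glucuronidase in the endoplasmic reticulum, and Ces1c a carboxylesterase secreted into mouse plasma. Ces2a and Ces2e belong to the subfamily related to human CES2, and Ces3a and Ces3b to a pair of liver enzymes of the third subfamily.

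The livers came from C57BL/6 mice aged 24 weeks kept on high-fat food for 12 weeks, offered ad libitum or under time-restricted feeding. Every group shared the strain, the age and the diet, and no group on another diet was measured. The 4 genotypes were WT, a knockout of Bmal1, which encodes a clock activator, in liver (Bmal1LKO), a Cry1 and Cry2 double knockout, with no tissue named (CryDKO), and a liver double knockout of Rev-erb alpha and beta (ReverbLDKO). There were 12 ad libitum and 11 restricted WT libraries, 2 per time at ZT4, ZT8, ZT12, ZT16, ZT20 and ZT24 with 1 at ZT12 under restriction (ZT, zeitgeber time, hours after lights on). Bmal1LKO had 6 libraries per feeding at the same times, and CryDKO and ReverbLDKO had 8 per feeding, 1 every 3 h from ZT3 to ZT24. The driver of the liver deletions, the deleted exons, the hours of feeding and whether each library is a separate animal are not given in the sources used here. P-values cover only the spread among these libraries, which may be technical.

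Depth recovered from the smallest steps of the FPKM values was 9.09 to 36.13 M reads per library. The deleted genes could not check the labels, because FPKM summed over all exons also counts transcript outside a deleted part. Arntl, the gene for BMAL1, had a median of 3.18 FPKM in Bmal1LKO against 7.29 in WT, Cry1 was at 10.2 in the libraries labelled CryDKO against 10.6 in WT, and Cry2 at 2.73 against 3.23. In those labelled ReverbLDKO Nr1d1 (Rev-erb alpha) was at 31.7 against 2.18 in WT and Nr1d2 (Rev-erb beta) at 17.9 against 8.56. Genotype names below are those of the labels. Hepatocyte markers were abundant throughout, with the sum of 10 of them at 40000 to 98400 FPKM, while of 5 markers of the intestine, which also makes carboxylesterases, Sis, Alpi, Lct and Vil1 never exceeded 0.124 FPKM and Fabp2 reached 1090. Liver is a mixture of cells, and in such bulk RNA fewer cells of a type and less RNA per cell cannot be told apart. A pair of libraries stood apart. All 10 members were at the lowest value of their group in restricted CryDKO ZT3 and in restricted ReverbLDKO ZT18, which also held the highest Saa1, an acute phase transcript, at 41900 and 16100 FPKM, so calls that end without either are named below.

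All 10 genes lie on chromosome 8 (GRCm38, GENCODE gene models), in a pair of clusters. The Ces1 members are on the minus strand, from Ces1b at 93056728 to 93080017 to Ces1g at 93302369 to 93337308. The others are on the plus strand, from Ces2a at 104734003 to 104741634, through Ces2e at 104926260 to 104934672 and Ces3a at 105048601 to 105058413, to Ces3b at 105083753 to 105093929. The genes arose by duplication, and their transcripts share sequence. Of the 50-base stretches of Ces3a and Ces3b, 25.6% and 26.2% also occur in the other, so reads could be divided between these 2 genes and their values are uncertain in that respect. Ces1b and Ces1c shared 11.6% and 13% of their stretches with other transcripts, mostly with each other, and 17.3% of those of Ces2a occurred elsewhere, mostly in the predicted gene Gm7208. The remaining members shared between 0.903% (Ces1f) and 3.3% (Ces2e). The read length and the handling of reads with several matches are not given in the sources used here.

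Promoter sequence is shown first for the Ces1 cluster, because all 6 of its members described here were lower in Bmal1LKO and in ReverbLDKO than in WT. In ReverbLDKO the calls of Ces1b and Ces1c did not hold under every setting, as given below. The 250 bases before the start site were taken from RefSeq (GRCm38.p6) for the 7 members with an entry, and 7 motifs were searched on both strands: CACGTG (an E-box, the site of BMAL1 with CLOCK), its variant CACGTT, TTATGTAA (a D-box, the site of DBP, TEF, HLF and NFIL3), TAGGTCA (a site of REV-ERB and ROR), an HNF1 motif, CAAAGTCC (HNF4A) and TTGCGCAA (CEBPA). Ces1d, Ces1f and Ces3a had no entry and were not searched. The only matches in members were to the D-box, which was present in 4 of the 4 Ces1 members with an entry and in 0 of the 3 Ces2 and Ces3 members with an entry. Among all 32851 promoter windows of this length 0.819% held it. The shares were 6.02% for CACGTG, 3.85% for CACGTT, 2.23% for TAGGTCA, 0.371% for the HNF1 motif, 1.2% for CAAAGTCC and 0.164% for TTGCGCAA. The 4 sites are shown 5′ to 3′ on the gene's strand with the D-box in capitals, none of which overlapped another motif:
Ces1b (chr8:93080006-93080035): gagggggagctTTATGTAAttatgctaatt
Ces1c (chr8:93131359-93131388): gagggggagctTTATGTAAttatgctaatt
Ces1e (chr8:93229682-93229711): ctgagagatatTTATGTAAgaagttgtttg
Ces1g (chr8:93337423-93337452): ggggagaaacaTTATGTAAgatgttccttg

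Counted from the RefSeq start site, the D-box ended 77 bases before it in Ces1b, 87 in Ces1c, 74 in Ces1e and 225 in Ces1g. Those of Ces1b and Ces1c are not independent occurrences: the 30 bases shown were identical in Ces1b and Ces1c, whose 250-base windows were 85.2% identical. Ces1b has a second listed start site, whose window ends inside the D-box and held no match. Of 8 other carboxylesterase genes with an entry, 1 held the D-box, Ces1a, with a mean level of 0.14 FPKM; Ces1h, of the same cluster and at 0.00588 FPKM, held none of the 7 motifs. A match is a run of letters and does not show binding. The whole windows of 2 members, one with the highest level of the family and one whose level differed more between genotypes, are given with the D-box in capitals:
Ces1c (chr8:93131284-93131533, minus strand): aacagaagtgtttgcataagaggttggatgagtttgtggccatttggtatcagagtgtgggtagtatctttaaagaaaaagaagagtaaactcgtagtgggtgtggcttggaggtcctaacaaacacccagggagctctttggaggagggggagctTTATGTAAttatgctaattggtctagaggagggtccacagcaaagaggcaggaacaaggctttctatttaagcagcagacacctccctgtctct
Ces1e (chr8:93229620-93229869, minus strand): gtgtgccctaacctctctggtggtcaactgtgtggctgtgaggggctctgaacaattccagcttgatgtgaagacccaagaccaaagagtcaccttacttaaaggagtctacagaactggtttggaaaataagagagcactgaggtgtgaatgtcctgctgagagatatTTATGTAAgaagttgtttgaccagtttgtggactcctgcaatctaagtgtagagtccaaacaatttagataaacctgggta

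FPKM is a value per length, so levels can be set side by side between genes. Ces1c was the most abundant member, with a mean of 1110 FPKM over all libraries, followed by Ces3a at 763, Ces1d at 326 and Ces3b at 143. The other 6 had means of 44.5 (Ces2a) to 93.8 (Ces1f), with Ces1b at 79.9, Ces1g at 68.6, Ces2e at 66.3 and Ces1e at 60.1. Ces1c and Ces3a together made most of the summed FPKM of the members in every group: in ad libitum WT they held 41.9% and 26% of a sum of 2798 ± 552 FPKM (SD, n = 12). The sum was lower in ad libitum Bmal1LKO at 2036 ± 182 (SD, n = 6) and ReverbLDKO at 2007 ± 159 (SD, n = 8), and higher in ad libitum CryDKO at 3899 ± 494 (SD, n = 8). These values are as deposited, and the FPKM sums of whole libraries also differed. Those were 419016 to 1097495 in ad libitum WT, 394647 to 481470 in Bmal1LKO, 386198 to 427243 in ReverbLDKO and 415961 to 468926 in CryDKO. The members' share of the whole sums was not compared. Of the 10 remaining carboxylesterase genes in the table, Ces2g (18.1 FPKM), Ces2c (6.17) and Ces4a (2.35) passed the filter, and 7 had means of 0.00027 to 0.478 FPKM.

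The first comparison was of each mutant, as labelled, with WT. In Bmal1LKO all 6 Ces1 members and Ces2a were lower than in WT, whereas Ces2e, Ces3a and Ces3b did not pass. Ces1d ran from 6.97 to 219 FPKM (median 34) over 12 Bmal1LKO libraries and from 67 to 759 (median 282) over 23 WT libraries. Of the 12 Bmal1LKO libraries 11 lay under every WT library, and the ranges overlapped only through the ad libitum library of ZT20. How many of all genes lay so far apart was not counted, here or where ranges are compared below. The difference, taken over both feedings from a fit of all groups on the log2(FPKM + 1) scale, was -2.93 ± 0.21 (SE; limma with Benjamini-Hochberg adjustment over the 9958 genes, adjusted p = 1.79e-15). On this scale a fold change is slightly understated.

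The other Ces1 members followed in Bmal1LKO. Ces1e was at 6.13 to 54.2 FPKM (median 11.9), against 30.7 to 106 (median 64.4) in WT, a log2 difference of -2.15 ± 0.19 (adjusted p = 2.26e-12 in limma). Ces1b was at 7.24 to 49.6 (median 13.1), against 21.2 to 124 (median 48.2) (-1.77 ± 0.14, adjusted p = 5.9e-14 in limma). The library inside the WT range was again ad libitum ZT20 in both genes, joined for Ces1b by restricted ZT24 at 23.1. Ces1f and Ces1g differed by -1.75 ± 0.21 and -1.71 ± 0.20 on the log2 scale. The abundant Ces1c differed least, from a median of 1200 FPKM in WT to 810 (log2 difference -0.58 ± 0.07), and Ces2a, a hydrolase of acylglycerols and drugs, went from a median of 51 to 34.6 FPKM (-0.52 ± 0.13, adjusted p = 0.00183 in limma). Thus 7 of 10 members were lower and 0 higher, where 7.74% of all genes tested were lower and 19.6% higher. The median log2 difference of the members was -1.15, against 0.07 over all genes. With each library scaled to the same sum of FPKM, Ces2a no longer passed (adjusted p = 0.0588) and the other 6 did.

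Of 10 hepatocyte markers tested in Bmal1LKO against WT, 1 was lower, Alb (log2 difference -1.30 ± 0.09), and 0 higher, with a median of -0.04 over the 10. The sum of the 10 was 40000 to 53000 FPKM in Bmal1LKO and 54900 to 94000 in WT. Of the bile duct markers 2 of 2 tested were higher (median 0.98), of the stellate cell markers 3 of 5 were higher and 0 lower, and of the endothelial markers 1 of 6 was higher and 0 lower. The part of these in the lower carboxylesterases was not tested.

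**Figure D1:**
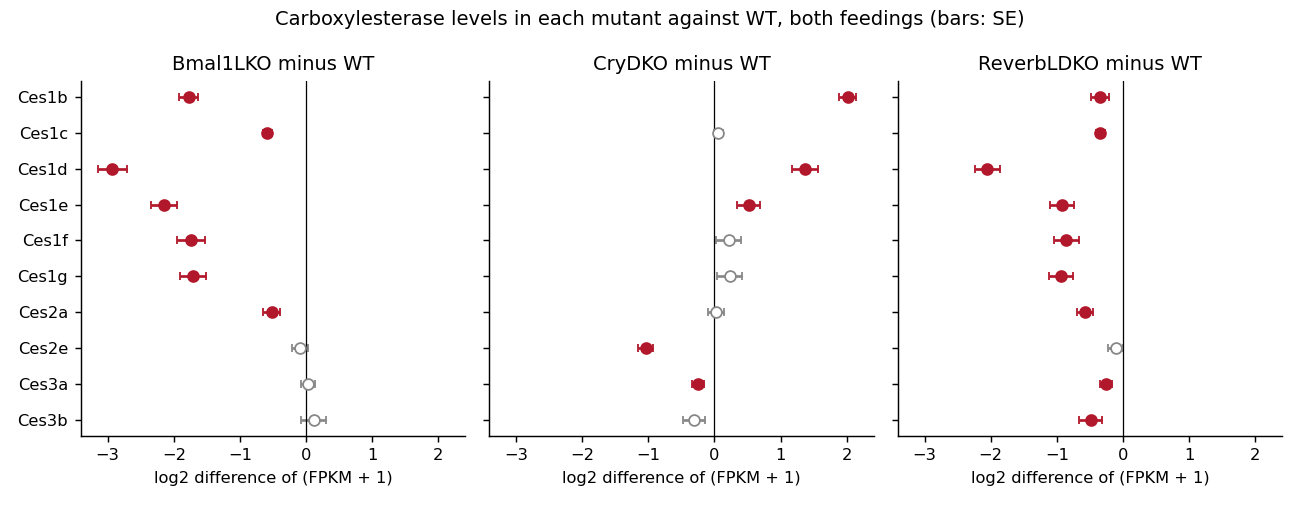
Log2 difference (± SE) of each member between a mutant and WT over both feedings, on the log2(FPKM + 1) scale; filled points passed at an adjusted p under 0.05 and open points did not. All 6 Ces1 members lie left of 0 in Bmal1LKO and ReverbLDKO, and in CryDKO Ces1b and Ces1d lie at 2.02 and 1.37 while Ces2e lies at -1.04.

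In the libraries labelled CryDKO 3 members were higher than in WT and 2 lower, where 34.4% of all genes tested were higher and 30.9% lower, so the counts themselves lay near the background. The sizes of the changes differed widely between members. Ces1b was at 158 to 267 FPKM (median 209) in 16 CryDKO libraries and at 21.2 to 124 in WT. Every CryDKO library lay above every WT library, with means of 205 ± 33.2 (SD, n = 16) and 52.6 ± 23.2 (SD, n = 23), which is 3.91-fold (log2 difference 2.02 ± 0.13, adjusted p = 1.09e-17 in limma). The share of all genes whose ranges do not overlap was not counted. Its neighbour Ces1c, with which it shares sequence, was at 781 to 1570 FPKM there and at 871 to 1820 in WT, and did not pass (0.06 ± 0.07, adjusted p = 0.461 in limma). Ces1d had a median of 869 FPKM, against 282 in WT (1.37 ± 0.20, adjusted p = 9.39e-08 in limma), and 9 of 16 libraries lay above every WT library. Ces1e was higher by 0.52 ± 0.18 on the log2 scale, with 9 libraries above every WT library and 2 below.

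Ces2e was the member that was lower in CryDKO by the greatest amount. It was at 13.7 to 67.8 FPKM (median 40.9) in CryDKO and at 44.9 to 111 (median 76) in WT, and 11 of 16 CryDKO libraries lay under every WT library (log2 difference -1.04 ± 0.11, adjusted p = 6.91e-11 in limma). In Bmal1LKO and ReverbLDKO its medians were 71 and 70.3 FPKM and it did not pass against WT (-0.09 ± 0.12 and -0.11 ± 0.11). Fabp2, a fatty acid binding protein gene listed as an intestinal marker but abundant here, was lower in CryDKO (-2.01 ± 0.19) and, unlike Ces2e, also passed as lower in Bmal1LKO (-0.64 ± 0.21) and ReverbLDKO (-0.57 ± 0.19), while Sis, Alpi and Lct stayed at or near 0 in every library. Ces3a was lower by a small amount (-0.24 ± 0.09, adjusted p = 0.0184 in limma), and this call ended without restricted CryDKO ZT3 (-0.15, adjusted p = 0.0749), with each library scaled to the same FPKM sum (-0.05, adjusted p = 0.73) and with a correction for GC content and length (-0.04, adjusted p = 0.738).

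Within CryDKO the levels of Ces1e, Ces1f and Ces1g differed greatly from library to library. In the 5 CryDKO libraries with the highest Mup17, a urinary protein transcript that is usually male-biased in mouse liver (2200 to 5290 FPKM), Ces1e was at 30.5 to 78.6 FPKM. In the 11 others, with Mup17 at 20.4 to 851, Ces1e was at 63.9 to 198, except in restricted ZT3 where it was at 11.6. Cyp2b9, a usually female-biased P450 transcript, was at 28.2 to 192 FPKM in CryDKO libraries. Of the 10 hepatocyte markers 2 were higher and 6 lower in CryDKO than in WT, of 6 endothelial markers 4 were higher and 1 lower, of 5 stellate cell markers 0 and 3, and of 2 bile duct markers 0 and 2. The part of these patterns in the Ces1 levels was not tested, and the sex of the animals is not given in the sources used here.

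In the libraries labelled ReverbLDKO 9 of 10 members were lower than in WT and 0 higher, where 27.6% of all genes tested were lower and 30.1% higher. Ces1d was at 14.6 to 152 FPKM (median 70.9) over 16 libraries, against a WT median of 282 (log2 difference -2.05 ± 0.20, adjusted p = 9.4e-12 in limma), and 7 libraries lay under every WT library. Ces1g had a median of 36.8 FPKM against 85.5 in WT (-0.94 ± 0.18), Ces1e 35.9 against 64.4 (-0.92 ± 0.18) and Ces1f 65.4 against 116 (-0.86 ± 0.19). Ces2a had a median of 35.3 FPKM against 51 in WT (-0.57 ± 0.12). The ranges of these 5 genes overlapped with WT.

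The remaining 4 calls in ReverbLDKO were smaller: -0.35 ± 0.13 for Ces1b, -0.34 ± 0.07 for Ces1c, -0.26 ± 0.09 for Ces3a and -0.49 ± 0.17 for Ces3b on the log2 scale. Without restricted ZT18 the Ces1b call ended (-0.30, adjusted p = 0.0515), and the other 8 held. All 4 were lost when each library was scaled to the same FPKM sum (adjusted p = 0.536, 0.406, 0.975 and 0.244) and under a correction for GC content and length (adjusted p = 0.54, 0.138, 0.37 and 0.105), which left 5 of 10 members lower in both. The median log2 difference of the members was -0.53, against 0.01 over all genes. Of the 10 hepatocyte markers 2 were higher and 3 lower in ReverbLDKO, of 6 endothelial markers 4 and 1, of 5 stellate cell markers 1 and 0, and of 2 bile duct markers 1 and 0. Their part in the result was not tested.

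**Figure D2:**
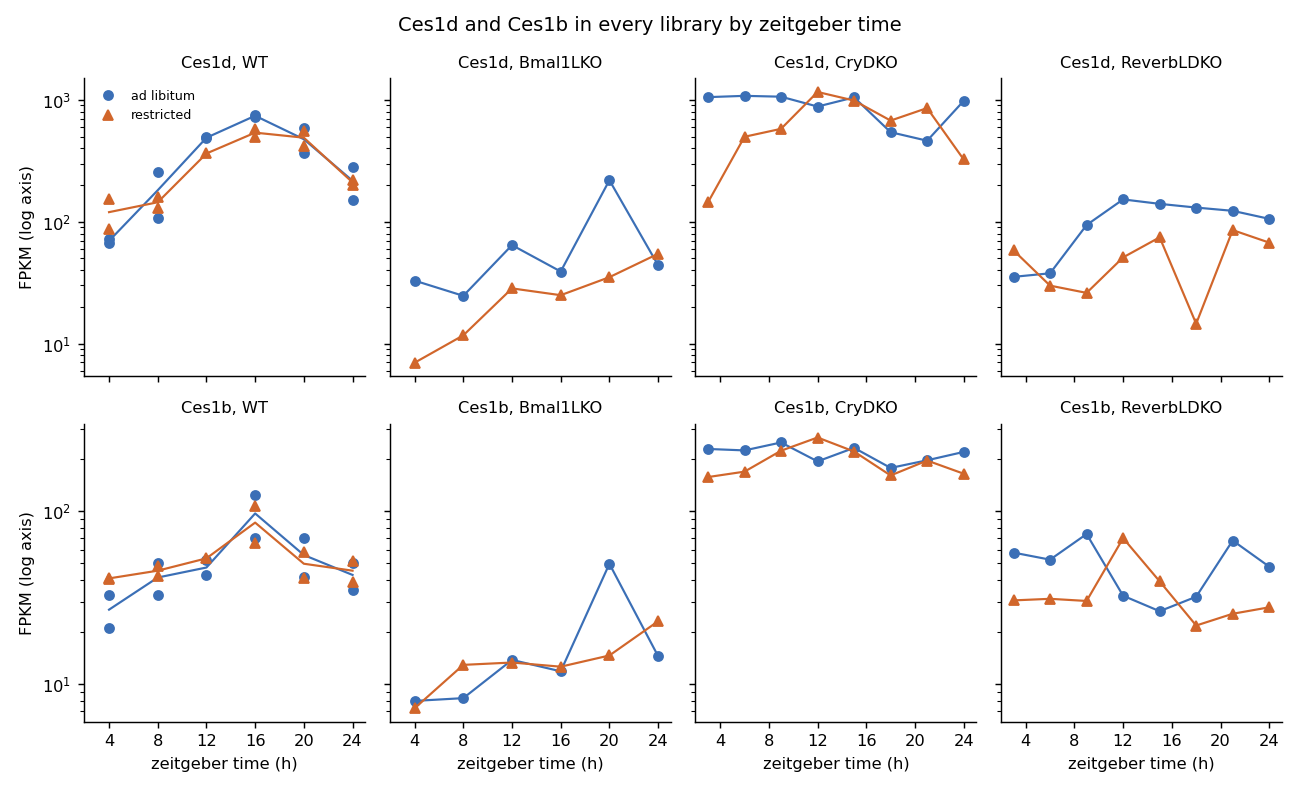
FPKM (log axis) of Ces1d and Ces1b against zeitgeber time in hours, 1 panel per genotype, with circles and blue lines for ad libitum and triangles and orange lines for restricted libraries; points are libraries and lines join the mean at each time. Mean WT Ces1d goes from 69.7 at ZT4 to 741 at ZT16 ad libitum, and all CryDKO points of Ces1b lie at 158 or above.

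The mutants were also set directly against each other. Between CryDKO and Bmal1LKO 7 members were higher in CryDKO (24.4% of all genes) and 2 lower (34.3% of all genes). Ces1d and Ces1b differed most, by 4.29 ± 0.23 and 3.79 ± 0.15 on the log2 scale, with means of 771 against 48.8 FPKM for Ces1d and of 205 against 15.8 for Ces1b, and the ranges of Ces1b did not overlap. Between ReverbLDKO and Bmal1LKO 6 members, all of them Ces1 genes, were higher in ReverbLDKO (16.4% of all genes) and 2, Ces3a and Ces3b, lower (29.1% of all genes), with Ces1b at 1.43 ± 0.15 and Ces1e at 1.23 ± 0.21. Between CryDKO and ReverbLDKO 7 members were higher in CryDKO (17.9% of all genes) and 1, Ces2e, lower (16.3% of all genes). The lower Ces3a calls against Bmal1LKO, -0.27 in CryDKO and -0.29 in ReverbLDKO, ended with the same FPKM sum (adjusted p = 0.138 and 0.253) and without ad libitum Bmal1LKO ZT16 (adjusted p = 0.0617 and 0.0548), among other settings. That in CryDKO also ended without restricted CryDKO ZT3 (-0.18, adjusted p = 0.0736). The order of mean Ces1d was CryDKO, WT, ReverbLDKO and Bmal1LKO in both feedings. Among the 8 groups ordered by mean, only the step from restricted WT (306 ± 183 FPKM, SD, n = 11) to ad libitum ReverbLDKO (102 ± 44.6, SD, n = 8) exceeded the SD of both neighbours.

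The transcripts of the proteins known to bind the D-box are given beside these values; they were chosen after the motif matches were seen. Dbp, an activator, had medians of 1.88 FPKM in WT, 1.94 in Bmal1LKO, 30.8 in CryDKO and 15.2 in ReverbLDKO. Against WT it was higher in CryDKO (log2 difference 2.65 ± 0.22) and in ReverbLDKO (1.37 ± 0.22), and did not pass in Bmal1LKO (-0.50 ± 0.25, adjusted p = 0.122 in limma). Tef and Hlf were higher in CryDKO (1.16 ± 0.12 and 0.93 ± 0.11) and in ReverbLDKO (0.32 ± 0.12 and 0.50 ± 0.11). Nfil3, which encodes a repressor at the same site, was lower in CryDKO (-0.62 ± 0.14), higher in ReverbLDKO (0.86 ± 0.14) and at -0.01 ± 0.16 in Bmal1LKO. The part of these transcripts in the Ces1 levels was not tested.

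The second question was what time-restricted feeding did within each genotype. In WT the 2 Ces3 genes were higher under restriction and 0 members were lower, where 28.6% of all genes tested were higher and 35.5% lower. Ces3a was at 483 to 801 FPKM (median 718) ad libitum and at 784 to 1160 (median 930) restricted, higher in 6 of 6 times, and the ranges met only at their ends (log2 difference 0.44 ± 0.12, adjusted p = 0.00113 in limma). Ces3b was at 40.6 to 239 (median 136) ad libitum and at 116 to 252 (median 176) restricted, also higher in 6 of 6 times (0.54 ± 0.22, adjusted p = 0.0295 in limma). The Ces3b call ended without ad libitum ZT8 replicate 1, where Ces3b was at 40.6 and Cyp2b9 at 163 FPKM (0.39, adjusted p = 0.0941), and without ad libitum ZT12 replicate 1, ad libitum ZT24 replicate 2 or restricted ZT16 replicate 2 (adjusted p = 0.0514, 0.0503 and 0.0574). With only WT replicate number 2 neither gene passed (0.34, adjusted p = 0.0754, for Ces3a and 0.24, adjusted p = 0.476, for Ces3b). None of the 6 Ces1 members passed in WT, and Ces1d was at -0.06 ± 0.25. The 2 WT feeding groups also differed in how levels varied with GC content. The slope of log2 level, relative to each gene's mean, on GC content had a median of 0.303 ad libitum and -0.516 restricted. In the mutant groups this median was -0.011 to 0.122. Its part in the WT feeding calls, and in the comparison of feeding effects below, was not tested beyond the GC and length correction.

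In ReverbLDKO the same pair was higher under restriction, where 1.09% of all genes were higher and 2.25% lower. Ces3a went from 340 to 733 FPKM (mean 558) ad libitum to 623 to 906 (median 852) restricted, higher in 8 of 8 times (0.61 ± 0.14, adjusted p = 0.00674 in limma). Ces3b went from 26.5 to 121 (median 96.3) to 108 to 196 (median 151), higher in 8 of 8 times (1.00 ± 0.26, adjusted p = 0.0193 in limma). The lowest ad libitum values of Ces3b, 27 at ZT21 and 26.5 at ZT24, were in libraries with Cyp2b9 at 156 and 158 FPKM, against 1.19 to 75.5 in the other 6. Without the 4 WT and ReverbLDKO libraries with Cyp2b9 above 80 FPKM, a limit chosen after seeing the data, the differences were 0.43 for Ces3a (adjusted p = 0.232) and 0.55 for Ces3b (adjusted p = 0.409), and 0 members passed. The Ces3b call also ended without any single one of ad libitum ZT9, ZT12, ZT21 or ZT24 or restricted ZT24 (log2 differences of 0.87 to 0.97, adjusted p = 0.0502 to 0.0737).

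Ces1d was lower under restriction in ReverbLDKO, from 35.3 to 152 FPKM (median 114) to 14.6 to 85.4 (median 54.6), lower in 7 of 8 times (-1.02 ± 0.30, adjusted p = 0.0427 in limma). Without restricted ZT18 the difference was -0.69 (adjusted p = 0.163), and the call ended in 10 of the 16 fits that left out 1 library. In Bmal1LKO 0 members passed in limma, where 0.0201% of genes were higher and 0.0201% lower, although 5 members had an unadjusted p under 0.05 and 3 passed with library weights (9.47% of all genes then). Ces1f and Ces1g were lower in 6 of 6 times there, with Ces1g from 21.5 to 50.9 FPKM ad libitum to 7.86 to 25.5 restricted (-1.16 ± 0.32, adjusted p = 0.182 in limma). In CryDKO 0 members passed in limma, where 0% of genes were higher and 0.0201% lower, with 6 members at an unadjusted p under 0.05 and 2 passing with library weights (4.75% of all genes). Ces3a was higher under restriction in 1 of 8 times there and Ces3b in 3 of 8, whereas in Bmal1LKO Ces3a was higher in 5 of 6 times and Ces3b in 6 of 6, without passing.

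**Figure D3:**
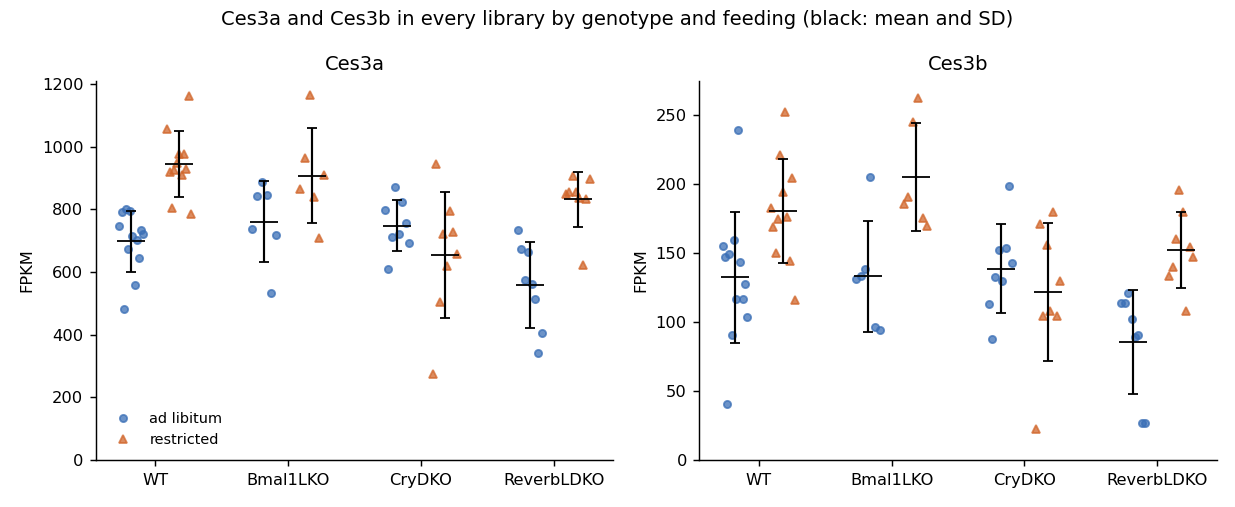
FPKM of Ces3a and Ces3b in every library by genotype, with circles for ad libitum and triangles for restricted feeding, and the mean and SD of each group in black. Restricted means are above ad libitum means in WT, Bmal1LKO and ReverbLDKO, as for Ces3a in WT at 945 against 698, and below them in CryDKO, at 656 against 748 (710 without restricted ZT3).

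Whether the feeding effect differed between the genotypes was tested itself. Ces3a (adjusted p = 0.00147 in limma), Ces3b (0.0148) and Ces1g (0.0181) passed, where 47% of all genes did, so 3 of 10 members lay under the background. The log2 feeding effects of Ces3a were 0.44 ± 0.12 in WT, 0.26 ± 0.16 in Bmal1LKO, -0.26 ± 0.14 in CryDKO and 0.61 ± 0.14 in ReverbLDKO. Those of Ces3b were 0.54 ± 0.22, 0.65 ± 0.30, -0.34 ± 0.26 and 1.00 ± 0.26 in the same order, so CryDKO alone had a value below 0 in both genes. Without restricted CryDKO ZT3 those 2 values were -0.08 ± 0.12 for Ces3a and -0.02 ± 0.23 for Ces3b, and the restricted mean of Ces3b was 136 FPKM against 139 ad libitum. The differences between genotypes still passed without it (adjusted p = 0.00303 and 0.0429 in limma). Those of Ces1g were 0.15 ± 0.23, -1.16 ± 0.32, -0.82 ± 0.28 and -0.67 ± 0.28, the CryDKO value being -0.61 ± 0.28 without ZT3 and the ReverbLDKO value -0.45 ± 0.28 without ZT18. The Ces3b call ended with no filter on low values (adjusted p = 0.0677). The Ces1g call ended there too (0.0809), with no time terms (0.082), with GC and length correction (adjusted p = 0.0542) and with WT replicate number 1 alone (0.31).

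The third question was the daily course. In ad libitum WT 3 members had a 24 h rhythm, where 29.7% of all genes did. Ces1d averaged 69.7 FPKM over its 2 libraries at ZT4, its lowest time, and 741 at ZT16, its highest. As deposited, the 2 libraries of each of these times lay close together (67 and 72.3, 723 and 759). The whole FPKM sums of the ZT16 libraries differed, at 566518 in replicate 1 and 1097495 in replicate 2, the greatest of all libraries. How close these libraries lie, and which time is highest, was not compared with each library scaled to the same FPKM sum. The fitted rhythm had a 9-fold range from trough to peak on the log2(FPKM + 1) scale with its peak at ZT16.2 (adjusted p = 4.75e-05 in limma). Ces1b (2.61-fold, peak at ZT16.4, adjusted p = 0.00704) and Ces1c (1.46-fold, peak at ZT16.3, adjusted p = 0.0356) peaked at a like time. The Ces1b call ended without ad libitum ZT16 replicate 2 (adjusted p = 0.0553 in limma) and with library weights (0.097). It also ended with only its group in the fit (0.111), with WT replicate number 1 alone (0.21) and without libraries with Saa1 above 5000 FPKM (0.0668). That of Ces1c ended without any single one of 6 libraries (adjusted p = 0.0502 to 0.124). It also ended with the same FPKM sum (0.601) and with GC and length correction (0.162), among other settings. Ces1d passed under every setting that was run. The 2 libraries of ZT4, the lowest time of all 3 genes, held Saa1 at 6510 and 8800 FPKM. The part of this in the rhythms was not tested. Under restriction 1 member, Ces1d, had a rhythm in WT, where 20% of all genes did, from 120 FPKM at ZT4 to 538 at ZT16 (5.16-fold, peak at ZT17, adjusted p = 0.00235 in limma); with WT replicate number 1 alone it did not pass (adjusted p = 0.243). In WT 0 members differed in rhythm between the feedings, where 0% of genes did, 0 members had an unadjusted p under 0.05 and 0 passed with library weights (2.39% of all genes).

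In the mutants fed ad libitum 0 members had a rhythm in limma. The share of all genes was 0.0301% in Bmal1LKO, 0.0402% in CryDKO and 0.0301% in ReverbLDKO, with 1 library per time in each, and 2, 3 and 3 members had an unadjusted p under 0.05. With library weights 0 members passed in Bmal1LKO, 4 in CryDKO and 6 in ReverbLDKO, where the share of all genes was 0.954%, 13.3% and 9.91%. Under restriction 0 members passed in Bmal1LKO (0.492% of all genes, 1 member at an unadjusted p under 0.05) and 0 in ReverbLDKO (4% of all genes, 0 at an unadjusted p under 0.05). With library weights 1 and 2 passed, against 6.24% and 34.8% of all genes. The rhythm differed between the feedings for 0 members in Bmal1LKO and 0 in ReverbLDKO, where 0% of genes did in each, with 0 and 2 members at an unadjusted p under 0.05 and 0 and 3 passing with library weights (0% and 9.04% of all genes).

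In restricted CryDKO 5 members passed, where 7.26% of all genes did: Ces2a (4.19-fold, peak at ZT14.4, adjusted p = 0.000646 in limma), Ces1g (5.82-fold), Ces1e (5.37-fold), Ces1d (4.59-fold) and Ces1f (4.51-fold). In each the lowest time was ZT3, the library with the highest Saa1. Without that library 0 members passed, with adjusted p from 0.101 for Ces2a to 0.745 for Ces1f. With only this group in the fit 0 members passed as well. The rhythm differed between the feedings in CryDKO for 3 members, Ces1e, Ces1g and Ces2a (1.25% of all genes, adjusted p = 0.0207, 0.0387 and 0.0387 in limma), and without restricted ZT3 for 0 (adjusted p = 0.227, 0.362 and 0.47).

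The pair of libraries that stood apart showed which members were most and least reduced there. In restricted CryDKO ZT3 Ces1f was at 15.3 FPKM, against 54.5 to 187 in the 7 other libraries of the group, which is 10.1% of their median. Ces1g was at 13.2% of the median of the others, Ces1e at 14.7%, Ces3b at 17.5% and Ces2a at 18.7%, while Ces1c was at 62.7% and Ces1b at 80.3%. In restricted ReverbLDKO ZT18 Ces1f was again the most reduced, at 9.61 FPKM against 53.4 to 71 (16.4% of the median), followed by Ces1d at 25% and Ces1g at 27.5%. Ces3a and Ces3b were at 72.9% and 69.9% there, unlike the 37.8% and 17.5% in CryDKO ZT3. A second library of that group with high Saa1 (9200 FPKM), ZT15, had the second lowest Ces1f, at 53.4 FPKM, and the highest Ces1c and Ces2a, at 1190 and 48.5. The part of the acute phase in these levels was not tested.

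**Figure D4:**
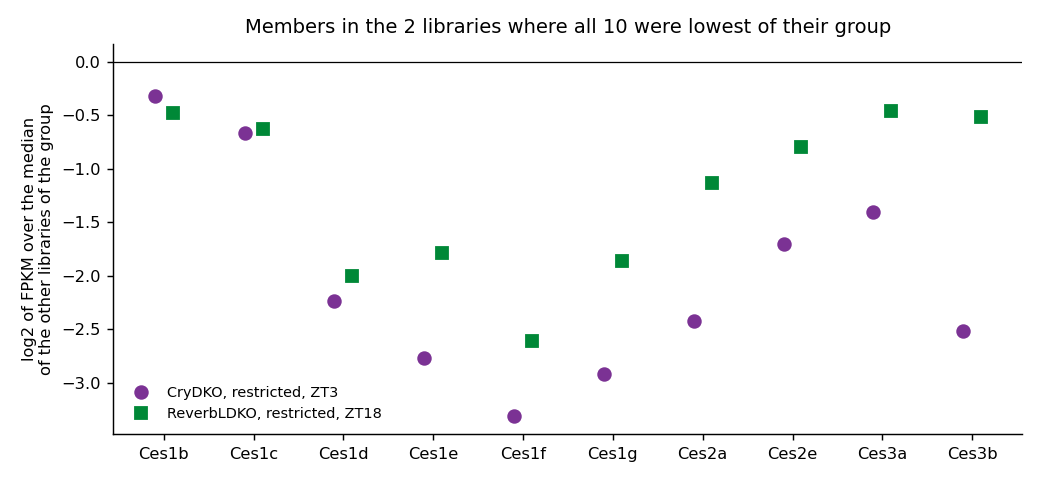
Log2 of each member's FPKM over the median of the 7 other libraries of its group, in restricted CryDKO ZT3 (circles) and restricted ReverbLDKO ZT18 (squares). All 20 points lie below 0, with Ces1f lowest in both at -3.31 and -2.61 and Ces1b at -0.32 and -0.48.

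Across the 56 means of group and time, the 6 Ces1 members varied together, with Pearson r on the log2 scale from 0.68 (Ces1b with Ces1g) to 0.95 (Ces1e with Ces1f). Ces3a and Ces3b had r = 0.89, and neither followed the Ces1 genes (r from -0.28 to 0.13). Ces2a followed the Ces1 genes in part (r from 0.39 to 0.75), and also Ces3a (0.49) and Ces3b (0.53). Ces2e ran against Ces1b (r = -0.61) and had r from -0.39 to -0.01 with the other Ces1 genes. After subtracting group means, over 67 libraries, the r of Ces2e was 0.17 with Ces1b and 0.4 to 0.75 with the others. The pair of libraries with the lowest values was included. Reads that match several members could raise these values, and the members of a mean share their libraries, so they are descriptions. The genes outside the family most like Ces1c, among 5129 whose mean reached 5 FPKM, were Hsd11b1 (r = 0.87), Ahcy (0.84) and Ugt1a1 (0.83). Those most like Ces2e were Ugt3a1 (0.84), Fabp2 (0.84) and Aldh1a7 (0.83), and those most like Ces3a were Hsd3b5 (0.82), Mup21 (0.79) and Mup12 (0.78).

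Among the other carboxylesterases 3 were tested. Ces2c, like Ces2e, was lower in CryDKO than in WT (-1.68 ± 0.15) and also in ReverbLDKO (-0.81 ± 0.15). Ces4a was lower in Bmal1LKO (-0.85 ± 0.21) and ReverbLDKO (-0.90 ± 0.19), and Ces2g was lower in CryDKO (-0.25 ± 0.08) and higher in ReverbLDKO (0.33 ± 0.08). Of the 50-base stretches of Ces2c 36.1% occur in other transcripts, so its value is uncertain. Of 14 tested hydrolases of neutral lipids and their cofactors, 2 were higher and 3 lower in Bmal1LKO, 4 and 3 in CryDKO, and 4 and 3 in ReverbLDKO. Lpl, lipoprotein lipase, was higher in Bmal1LKO (3.17 ± 0.13) and ReverbLDKO (2.29 ± 0.11). Abhd6, a monoacylglycerol hydrolase gene, had the directions of Ces1d: lower in Bmal1LKO (-0.86 ± 0.08), higher in CryDKO (0.63 ± 0.07) and lower in ReverbLDKO (-0.96 ± 0.07). Lipc, hepatic lipase, was higher in Bmal1LKO (0.78 ± 0.10).

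Of 13 VLDL assembly genes, 0 were higher and 1 lower in Bmal1LKO, 7 and 3 in CryDKO, and 3 and 5 in ReverbLDKO. Apob, the structural protein of VLDL, was higher in CryDKO (0.81 ± 0.20), P4hb, a subunit of the lipid transfer complex, lower in CryDKO (-0.76 ± 0.09), and Pdia4, an endoplasmic reticulum disulfide isomerase gene, lower in ReverbLDKO (-0.69 ± 0.13). Of 10 other xenobiotic hydrolases, 1 was higher and 3 lower in Bmal1LKO, 1 and 8 in CryDKO, and 3 and 5 in ReverbLDKO. The epoxide hydrolase genes Ephx2 and Ephx1 had the greatest differences, -0.81 ± 0.10 in Bmal1LKO and -0.74 ± 0.13 in CryDKO, followed by Cmbl at -0.61 ± 0.13 in ReverbLDKO. Of 12 genes listed for regulators, 0 were higher and 3 lower in Bmal1LKO, 6 and 2 in CryDKO, and 4 and 2 in ReverbLDKO. The 12 include Fxr1, which encodes an RNA-binding protein and not the receptor FXR (Nr1h4, also listed). Of all genes tested 19.6% were higher and 7.74% lower in Bmal1LKO, 34.4% and 30.9% in CryDKO, and 30.1% and 27.6% in ReverbLDKO. Nr1i3, which encodes the xenobiotic receptor CAR, was lower in Bmal1LKO (-0.82 ± 0.16), higher in CryDKO (0.58 ± 0.15) and lower in ReverbLDKO (-0.53 ± 0.15). Srebf1, the gene for the lipogenic factor SREBP1, was higher in ReverbLDKO (1.41 ± 0.21), and Cebpa higher in CryDKO (0.84 ± 0.07).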

How the data were processed

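Liver mRNA was measured in 67 libraries of 8 groups (genotype by feeding), grouped by the labels. Per the labels' protocols, TruSeq stranded mRNA libraries were made from 1 ug of RNA. The authors deposited FPKM values of 45808 gene rows in 1 table, made per the submitters' processing notes with STAR, featureCounts and DESeq2 on GRCm38; versions, gene models and the strand setting of the counting are not given in the sources used here. FPKM sums were 386198 to 1097495 per library, so the values have no common sum. From the steps of low FPKM values (up to 20 reads), of which 81.6 to 88.1% came out whole within 0.1 reads, depth was 9.09 to 36.13 M reads. FPKM are not counts, so no count test was run.

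Values were tested as log2(FPKM + 1) for the 9958 genes whose mean reached 1 FPKM, in 1 limma fit (3.58.1, R 4.3.3) of all libraries with a level, cosine and sine (24 h) per group, with Benjamini-Hochberg adjustment over all genes and a threshold of 0.05; groups with 1 library per time share the spread of all. The fit was tested on simulated data. Members, gene lists and tests were chosen with earlier results of these data known. All 10 members were named, with up to 3 genes of each list that passed with the greatest log2 difference from WT. Gene models came from GENCODE M21, promoters from RefSeq. Alternatives are given in the closing section.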

Additional observations from a re-analysis of the deposited data

Results flagged for a closer look

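In 60 sets of 4 to 10 libraries (1 member in 1 mutant group) 9 held a library far from the others by a gap rule. The rule is set to flag about 1 in 20 independent sets of normally spread values. These sets are of correlated members in the same libraries, on the FPKM scale, so 9 of 60 cannot be set against that rate. In ad libitum Bmal1LKO ZT20 was the high one for Ces1b (49.6 FPKM), Ces1d (219) and Ces1e (54.2). In restricted ReverbLDKO ZT18 was the low one for Ces1c (645 FPKM), Ces1e (10.3), Ces1f (9.61), Ces1g (10) and Ces3a (623). In the same group ZT12 was the high one for Ces1b (69.8).

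The effect of restricted feeding differed between the genotypes by its own limma test for Ces3a (adjusted p = 0.001471), Ces3b (0.0148) and Ces1g (0.01809). The rhythm differed between the feedings in CryDKO for Ces1e (adjusted p = 0.02074), Ces1g (0.03865) and Ces2a (0.03865) in limma, and for 0 members without restricted ZT3.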

How the results depend on the processing

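Of the members' differences that passed, none changed sign under the settings run; those that did not pass were not followed, except without the 2 lowest libraries. Leaving out 1 library left 1876 results as they were and ended the call in 77, and the other settings left 899 and ended 130. Mutant groups have 1 library per time, and depth of 9.09 to 36.13 M reads limits the low genes.

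With no filter on low values 1 member passed for feeding in WT, 1 in ReverbLDKO, 1 for the difference between genotypes, 3 for the rhythm in restricted CryDKO and 0 for its difference between feedings. With median-of-ratios scaling 2 had a rhythm in restricted WT. With the same sum of FPKM 6 differed in feeding effect between genotypes, 5 between ReverbLDKO and WT, and 1 in CryDKO rhythm between feedings. GC and length correction left 5 between ReverbLDKO and WT. With library weights, whose estimation did not fully converge, 1 passed for feeding in WT (72% of all genes) and 3 in Bmal1LKO (9.47%). For feeding in CryDKO 2 passed (4.75%), in ReverbLDKO 5 (41.5%) and for the difference between genotypes 7 (77.8%). The rhythm then passed for 1 in ad libitum WT (54% of all genes), 4 in ad libitum CryDKO (13.3%) and 6 in ad libitum ReverbLDKO (9.91%). Under restriction it passed for 1 in Bmal1LKO (6.24%) and 2 in ReverbLDKO (34.8%). It differed between feedings for 6 in CryDKO (20.4%) and 3 in ReverbLDKO (9.04%). With only the groups compared, 1 had a rhythm in ad libitum WT and 0 in restricted CryDKO, with 0 for the CryDKO difference. Time points as categories gave 1 for feeding in CryDKO and 7 for the difference between genotypes, and no time terms gave 1 for feeding in WT. Beside the counts of the other settings in this section the share of all genes is not given. Such counts say nothing of the members against all genes. The cause of these changes was not tested.

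WT replicate number 1 alone gave 1 for feeding in WT, 3 between CryDKO and WT, 1 rhythm ad libitum and 0 restricted, and number 2 alone gave 0 for feeding in WT. These settings hold fewer samples. The next 3 settings were added after seeing the data. Without 7 libraries with Saa1 above 5000 FPKM, 3 passed for feeding in Bmal1LKO, 5 for the difference between genotypes, 1 and 2 for the rhythm in ad libitum and restricted WT, and 0 and 0 for the restricted CryDKO rhythm and its difference. Without 4 libraries with Cyp2b9 above 80 FPKM, 1 passed for feeding in WT and 0 in ReverbLDKO. Without restricted CryDKO ZT3 and ReverbLDKO ZT18, 1 passed for feeding in Bmal1LKO, 5 for the difference between genotypes, 5 and 2 for the WT rhythms, and 0 and 0 for the CryDKO ones.

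With 1 library left out, the counts ranged from 1 to 2 for feeding in WT, 0 to 1 in Bmal1LKO, 0 to 1 in CryDKO and 1 to 3 in ReverbLDKO, and from 3 to 7 for their difference. Rhythm counts ranged from 1 to 3 in ad libitum WT, 1 to 2 in restricted WT, 0 to 1 in ad libitum Bmal1LKO, 0 to 7 in restricted CryDKO and 0 to 5 for the CryDKO difference.

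A replicate block for WT, the only genotype with replicate numbers 1 and 2, moved no count by over 1.5 times but ended Ces3a against CryDKO (-0.25, adjusted p = 0.0594 in limma) and Ces1b, Ces3a and Ces3b against ReverbLDKO (adjusted p = 0.204, 0.0545 and 0.151). The replicate block with GC and length correction left 5 members between ReverbLDKO and WT. Deviations of same-numbered WT libraries correlated at 0.4, 0.63, 0.61, 0.54 and -0.29 over ZT4, ZT8, ZT16, ZT20 and ZT24, so the numbers do not pair the samples at every time.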
